A study of Mus musculus with 2 samples.

Results

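The cell cycle and proliferation genes described here are 36 mouse genes of DNA replication and mitosis, followed in the striatum of wild-type (WT) and connexin 30 knockout (Cx30 KO) mice on day 1 after MPTP. They were chosen by symbol, so a gene entered when the array carried a probe, other than a control, with its name. They are 36 of the 36998 gene names on the array and are covered by 68 probes. Connexin 30, encoded by Gjb6, is a gap junction protein of astrocytes, and MPTP is a toxin that damages dopamine neurons. Male mice, 8 weeks old, received 4 injections of 20 mg/kg MPTP every 2 h. The WT mice carry the strain label C57BL/6J and the Cx30 KO mice the label Cx30-LacZ, whereas the methods describe both genotypes as homozygous offspring of heterozygous parents. Striatal RNA of 2 mice of a genotype was pooled and hybridised to a single-colour Agilent array of 60-mer probes, which leaves 1 array for each genotype and no replicate. Both pools came from mice given MPTP, and no saline array enters the comparison, which therefore sets one genotype against the other and holds no response to the toxin.

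A dividing cell passes from G1 into S phase when D-type and E-type cyclins with their kinases release E2F transcription factors from the retinoblastoma protein. E2F then drives the genes that license origins, make nucleotides and copy DNA. A later set, driven by B-MYB and FOXM1, encodes the cyclins, kinases, kinesins and kinetochore proteins of G2 and mitosis. Neurons of the adult striatum do not divide. The cells that do are mainly oligodendrocyte precursors, joined by microglia after injury and by progenitors along the ventricular wall beside the striatum.

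The scanner reports a background-subtracted signal for each probe in arbitrary units, printed here with the scanner software's own error, which does not cover variation between mice. A ratio is Cx30 KO over WT after each array was scaled to its 75th percentile of signal (401.2 in WT and 381.8 in Cx30 KO). The Z-score of a ratio counts SDs from the mean of the 1000 probes nearest in signal. A gene was called lower at a ratio of at most 0.66 with a Z-score of at most −2.0, and higher at a ratio of at least 1.5 with a Z-score of at least 2.0, which are the limits named in the study. The log2 ratio of a single spot had an SD of 0.06, from 298 probes printed in 10 spots each, and probes of the same gene differed with an SD of 0.26 over 7147 genes. The knocked-out gene itself, Gjb6, gave 1788 ± 179 in WT and 111 ± 11.6 in Cx30 KO and was 15.4-fold lower.

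Of the 36 genes, 29 had a probe well above background on at least 1 array, 27 of them on both. The other 7, namely Tk1, Cdk1, Aurkb, Bub1, Bub1b, Kif11 and Nusap1, were not well above background on either array and have no ratio. Ccnd1, Mcm2, Mcm3, Mcm6 and Ube2c were lower in Cx30 KO by the criteria. These 5 genes are 17.2% of the 29 measured, against 3.39% of all 22008 genes measured on the array. No member (0) was called higher, against 2.37% of all genes. By sign alone, 16 of the 29 had a log2 ratio under 0, which is 55.2% against 45.4% of all genes. The median log2 ratio of the 29 was −0.02, with quartiles at −0.40 and 0.30, while that of all genes was 0.03 with quartiles at −0.17 and 0.21. Of the 24 members that were not called, 11 had a log2 ratio within the between-probe SD of 0 and 13 lay beyond it.

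**Figure D1:**
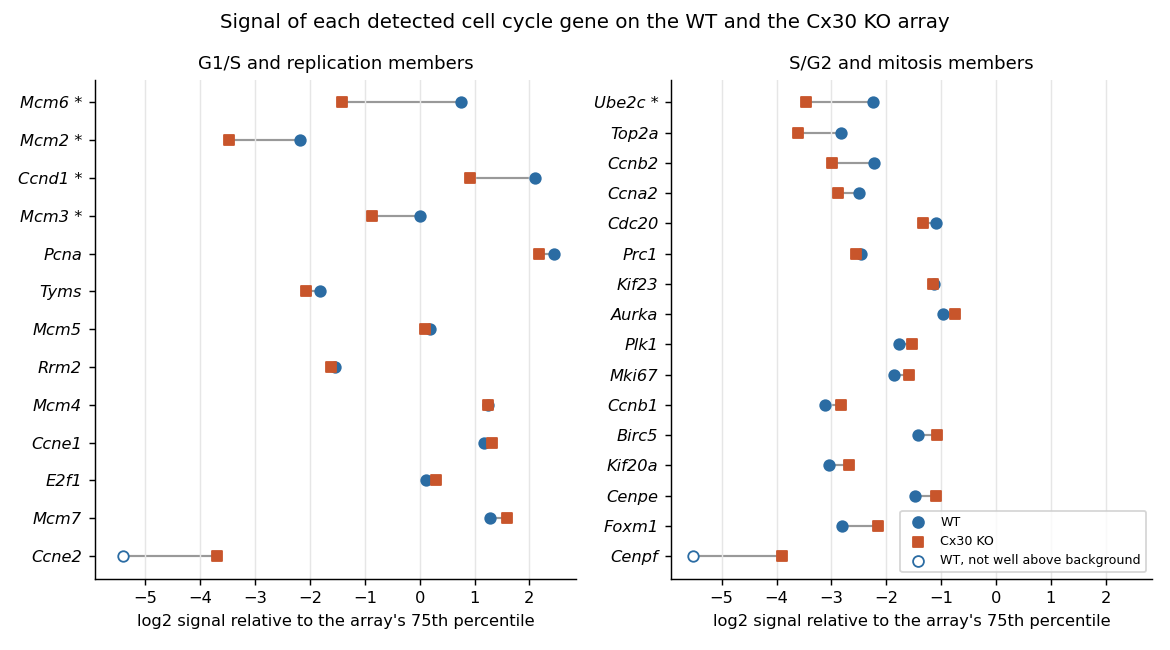
Signal of the 29 measured members on the WT array (blue circles) and the Cx30 KO array (orange squares), as log2 relative to the 75th percentile of each array, split into G1/S and replication genes (left) and S/G2 and mitosis genes (right). The 5 genes marked with an asterisk met the criteria for lower in Cx30 KO, and open circles mark the 2 genes, Ccne2 and Cenpf, that were not well above background in WT.

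Mcm2 to Mcm7 encode the subunits of the replicative DNA helicase, which is loaded at origins in G1 and whose rings each hold 1 copy of every subunit. All 6 genes were well above background on both arrays, yet their ratios did not move as a block: 3 were called lower and the other 3 were not. Mcm6 gave 680 ± 68.2 in WT and 144 ± 15.1 in Cx30 KO, which was 4.50-fold lower (log2 ratio −2.17, Z-score −6.19). Only 1.17% of all genes had a ratio as low or lower.

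The Mcm2 probe gave 88.0 ± 10.2 in WT and 34.4 ± 5.71 in Cx30 KO, which was 2.44-fold lower (log2 ratio −1.28, Z-score −2.48). Mcm3 gave 404 ± 40.6 and 209 ± 21.2, a 1.84-fold lower value (log2 ratio −0.88, Z-score −2.52). For these 3 subunits the difference was larger than the scanner's error of the log2 ratio, which was 0.21 for Mcm6 and Mcm3 and 0.29 for Mcm2.

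The remaining subunits did not meet the limits, and of these Mcm4 and Mcm5 had similar signals on the arrays. Mcm4 gave 956 ± 95.7 in WT and 902 ± 90.3 in Cx30 KO (log2 ratio −0.01). Mcm5 gave 459 ± 46.2 and 408 ± 41.1 (log2 ratio −0.10). Mcm7 gave 980 ± 98.1 and 1148 ± 115 (log2 ratio 0.30). The median log2 ratio of the 6 subunits was −0.49, and they ranged from −2.17 to 0.30.

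How firmly each subunit is measured depended on its probes. Mcm3 had 4 probes, all well above background on both arrays, with log2 ratios of −0.97, −0.88, −0.87 and −0.85 and an SD of 0.06 between them. Of these, 3 overlap or lie close together near the 3′ end of the gene, at chr1:20793119-20793324 (mm9, minus strand), and the dimmest, with 46.8 ± 6.75 in WT and 24.7 ± 5.0 in Cx30 KO, lies further inside the transcript. The second probe of Mcm7 gave 28.0 ± 5.2 in WT and 42.2 ± 5.74 in Cx30 KO (log2 ratio 0.66), in the same direction as the brighter one. Mcm2, Mcm4 and Mcm5 had 1 probe each.

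For Mcm6 the low ratio rests on 1 probe, at chr1:130228178-130228237 (mm9, minus strand) and base 2831 of its target transcript as the array files count it. The other probe, at base 1608, was not well above background on either array, with 9.70 ± 4.73 in WT and 4.11 ± 4.12 in Cx30 KO. No second measurement of the Mcm6 ratio is therefore at hand. The pair of inner probes is shown because one repeats the Mcm3 ratio and the other could not repeat that of Mcm6. Each line gives the genome span in mm9 with its strand, and the Mcm3 probe spans an intron, so that its 60 bases cover 517 bases of genome.
Mcm3, chr1:20795363-20795879 (-): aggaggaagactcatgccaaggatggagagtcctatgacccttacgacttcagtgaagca
Mcm6, chr1:130237911-130237970 (-): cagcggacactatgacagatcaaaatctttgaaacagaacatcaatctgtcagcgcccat

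**Figure D2:**
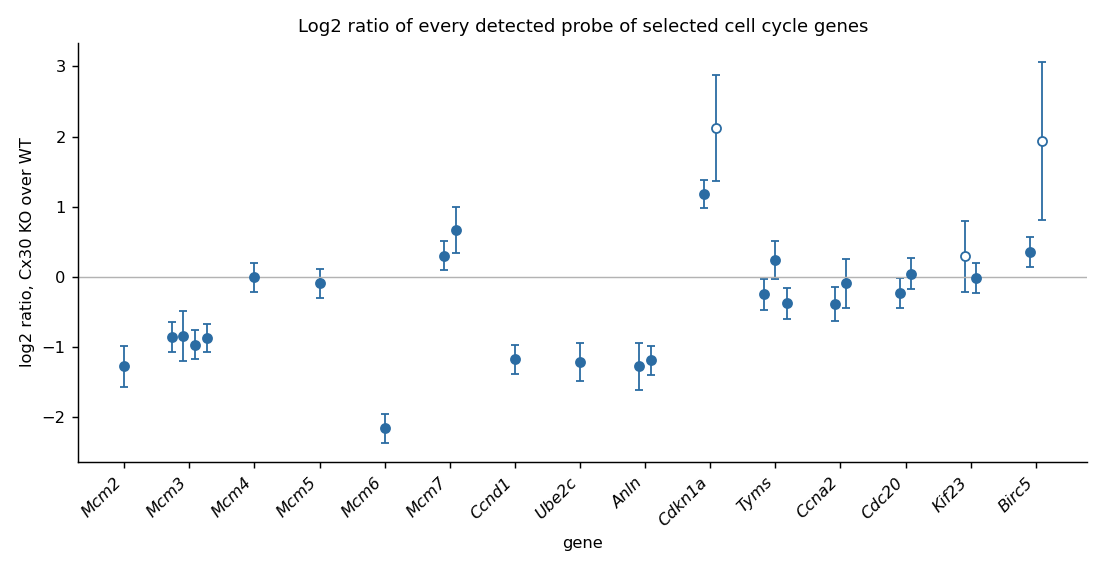
Log2 ratio of Cx30 KO over WT (vertical axis) for every probe well above background on at least 1 array. Shown are the MCM genes, the other called cell cycle genes apart from Kif15, and members with more than 1 such probe. Bars give the scanner's error, filled points were well above background on both arrays and open points on the Cx30 KO array only. The 4 Mcm3 probes lie between −0.97 and −0.85, while Mcm6 has a single point at −2.17.

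Among the other G1/S and replication genes, Ccnd1 was called lower. It encodes cyclin D1, which with Cdk4 or Cdk6 phosphorylates the retinoblastoma protein. Its signal was 1718 ± 172 in WT and 720 ± 72.2 in Cx30 KO, 2.27-fold lower (log2 ratio −1.18, Z-score −4.21), measured by 1 probe at chr7:152116202-152116261 (mm9, minus strand). The difference was larger than the scanner's error, and only 2.04% of all genes had a ratio as low or lower.

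The E-type cyclins, which with Cdk2 start S phase, did not share this difference. Ccne1 gave 904 ± 90.6 in WT and 957 ± 95.8 in Cx30 KO (log2 ratio 0.15). Ccne2 was well above background on the Cx30 KO array only, with 9.5 ± 4.68 in WT and 29.4 ± 5.0 in Cx30 KO. Against the lowest signal that counted as well above background in WT (19.8), it was at least 1.56-fold higher in Cx30 KO, but its Z-score of 1.25 was short of the limit.

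Pcna, the sliding clamp of the DNA polymerases, gave 2195 ± 220 in WT and 1716 ± 172 in Cx30 KO (log2 ratio −0.28). E2f1, a transcription factor of the G1/S genes, gave 436 ± 43.8 and 471 ± 47.2 (log2 ratio 0.18). Neither difference reached the limits.

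The genes of nucleotide supply were also close in both genotypes. Rrm2, a subunit of ribonucleotide reductase, gave 138 ± 14.6 in WT and 124 ± 13.1 in Cx30 KO (log2 ratio −0.09). Tyms, thymidylate synthase, gave 113 ± 12.1 and 90.4 ± 9.79 on its brightest probe (log2 ratio −0.25), and its other probes gave −0.38 and 0.24. Tk1, thymidine kinase, had 5 probes and none well above background, the highest at 22.0 ± 5.50 in WT and 21.8 ± 4.95 in Cx30 KO. Over the 14 G1/S and replication genes, 13 were measured and their median was −0.10. A log2 ratio under 0 was found for 9 of them (69.2%, against 45.4% of all genes), and 4 were called lower (30.8%, against 3.39%).

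Of the 22 genes of S/G2 and mitosis, 16 were measured. Of these, 7 had a log2 ratio under 0 (43.8%, against 45.4% of all genes) and 9 above it. The median was 0.23, and 1 was called lower (6.25%, against 3.39% of all genes). The called gene, Ube2c, encodes the ubiquitin-conjugating enzyme that works with the anaphase-promoting complex (APC/C) in the destruction of mitotic cyclins. Its signal was 84.6 ± 9.52 in WT and 34.6 ± 5.17 in Cx30 KO, 2.33-fold lower (log2 ratio −1.22, Z-score −2.32), on 1 probe at chr2:164598016-164598075 (mm9, plus strand).

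A few further mitotic genes passed a ratio limit but not the Z-score limit. Top2a, the topoisomerase that untangles sister DNA, gave 56.4 ± 7.05 in WT and 31.4 ± 4.86 in Cx30 KO (log2 ratio −0.77, Z-score −1.35). Ccnb2, a B-type cyclin, gave 85.7 ± 9.48 and 48.0 ± 5.96 (log2 ratio −0.77, Z-score −1.78). On the other side of 0, Foxm1, a transcription factor of the G2/M genes, gave 57.6 ± 7.28 and 86.3 ± 9.5 (log2 ratio 0.66, Z-score 1.24).

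Cenpf, a kinetochore protein, was well above background in Cx30 KO only, with 8.71 ± 4.04 in WT and 25.4 ± 4.29 in Cx30 KO, at least 1.35-fold higher with a Z-score of 1.28. Its second probe, not well above background on either array, gave 14.2 ± 5.33 and 7.11 ± 4.60. With the Z-score limit set aside, 7 members had a measured ratio at or under 0.66, against 6.21% of all genes. Measured ratios at or over 1.5 were found for 3 members, Foxm1, Ccne2 and Cenpf, against 7.22% of all genes. For Ccne2 and Cenpf these ratios rest on a WT signal that was not well above background, and the bound of Cenpf does not reach 1.5.

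The cyclins and kinases of mitotic entry showed no common direction. Ccna2, cyclin A2, gave 71.3 ± 8.19 in WT and 51.5 ± 6.25 in Cx30 KO (log2 ratio −0.40), and a second probe gave −0.10. Ccnb1, the partner of Cdk1, gave 46.3 ± 6.47 and 54.2 ± 6.73 (log2 ratio 0.30). Plk1, polo-like kinase, gave 117 ± 12.5 and 132 ± 13.8 (log2 ratio 0.24).

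Aurka, aurora kinase A of the spindle poles, gave 205 ± 20.9 in WT and 227 ± 23.0 in Cx30 KO (log2 ratio 0.22). Mki67, which encodes the proliferation marker Ki-67, gave 110 ± 11.9 and 127 ± 13.4 (log2 ratio 0.29). Neither the marker nor these kinases met the limits. Cdk1, the kinase of mitotic entry, stayed under the threshold for background with 18.1 ± 4.86 in WT and 4.0 ± 4.01 in Cx30 KO.

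Spindle, kinetochore and cytokinesis genes lay near or above 0. Cdc20, an activator of the APC/C, gave 187 ± 19.3 in WT and 151 ± 15.6 in Cx30 KO (log2 ratio −0.24), and its second probe gave 0.04. Birc5, survivin of the chromosomal passenger complex, gave 150 ± 15.6 and 182 ± 18.6 (log2 ratio 0.35). A second Birc5 probe was well above background in Cx30 KO only, with 6.39 ± 4.84 and 23.2 ± 4.84. Cenpe, the kinetochore motor, gave 145 ± 15.2 and 178 ± 18.3 (log2 ratio 0.37).

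The genes of the central spindle and cytokinesis did not meet the limits either. Kif23, a motor of cytokinesis, gave 184 ± 19.1 in WT and 172 ± 17.8 in Cx30 KO (log2 ratio −0.02). A second Kif23 probe, well above background in Cx30 KO only, gave 0.29, and the mean of the probes turned the sign of the gene to 0.14. Prc1, which bundles midzone microtubules, gave 72.8 ± 8.84 and 65.3 ± 7.91 (log2 ratio −0.09). Kif20a, another motor of cytokinesis, gave 48.6 ± 6.98 and 59.8 ± 7.5 (log2 ratio 0.37). Of the mitotic genes with no ratio, those besides Cdk1 had signals of at most 16.7 ± 4.77 (Kif11) in WT and 13.6 ± 4.79 (Nusap1) in Cx30 KO.

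The G1/S core genes (Mcm2 to Mcm7, Pcna, Ccne1 and Ccne2) were then set beside the G2/M core genes (Cdk1, Ccnb1, Ccnb2, Kif11, Kif20a and Kif23). All 9 G1/S core genes were measured, with 6 under 0 and 3 called lower, and their median log2 ratio was −0.10. Only 4 of the 6 G2/M core genes were measured, with 2 under 0 and none (0) called, and their median was 0.14. The medians differed by −0.24, and over the broad classes of 14 and 22 genes by −0.33. With the dim probes kept, which adds Cdk1 and Kif11, the difference turned to 0.11. Neither the difference of the medians nor that of the counts was tested, and 4 measured G2/M core genes are too few to read a rate from a count of 0.

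**Figure D3:**
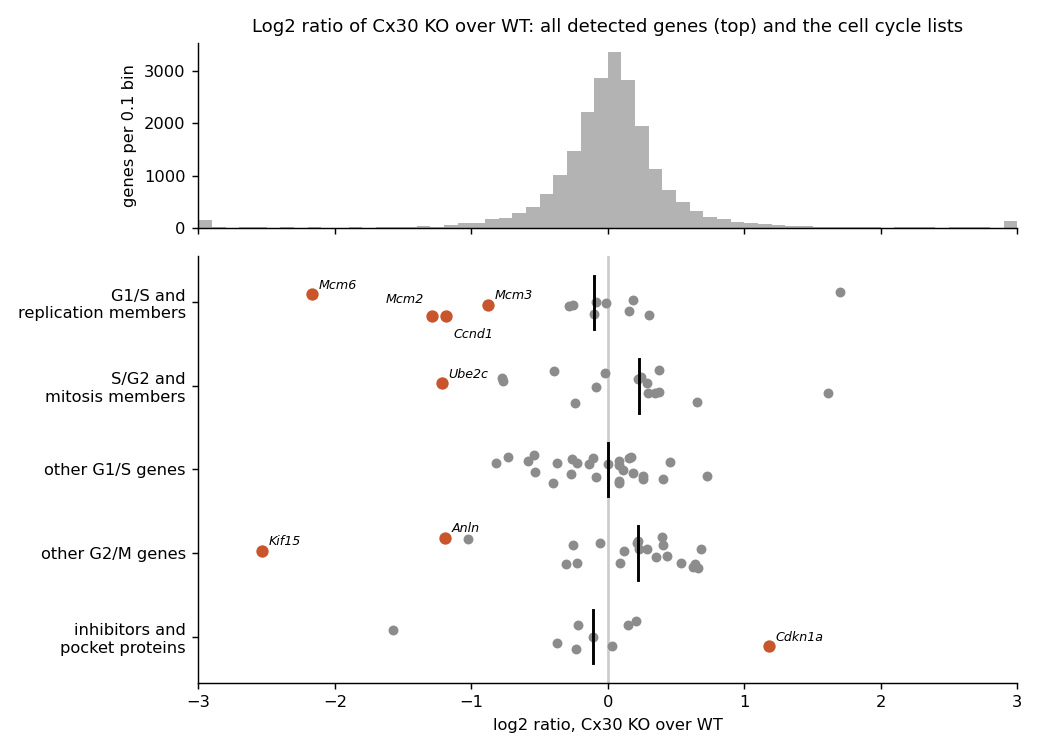
Log2 ratio of Cx30 KO over WT for all 22008 measured genes (top, genes per bin of 0.1, the outermost bins holding all genes beyond 3 either way) and for the measured genes of each cell cycle list (bottom). Orange points met the criteria and black lines are medians, which lie at −0.10 for the G1/S and replication members and at 0.23 for the S/G2 and mitosis members.

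Other genes of the same phases were read from further lists. These were not picked for how their genes moved, but were chosen with earlier results of these data known. Of 30 other G1/S and replication genes, among them Cdk4, Ccnd2, Cdc6, Cdt1 and the GINS and RFC subunits, 27 were measured. None (0) was called in either direction, against 3.39% of all genes lower and 2.37% higher. For 27 genes a count of 0 lies near these shares. A log2 ratio under 0 was found for 13, against 45.4% of all genes, and the median was 0.00. Of 30 other G2/M genes 22 were measured, with a median of 0.22. Among the 22, 7 were under 0, 2 were called lower and none (0) higher, beside the same shares of all genes.

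The G2/M genes outside the set that met the limits by their measured ratios were Anln and Kif15. Anln, anillin, a scaffold of the cytokinetic ring that is also known in myelin, gave 1217 ± 122 in WT and 506 ± 50.7 in Cx30 KO, 2.29-fold lower (log2 ratio −1.20, Z-score −4.00). Its second probe, with 63.4 ± 7.93 and 24.8 ± 4.94, gave −1.28. Kif15, a spindle motor, was well above background in WT only, at 25.5 ± 5.34 against 4.18 ± 4.19 in Cx30 KO, at least 1.40-fold lower. That bound does not reach the ratio limit, so the call of Kif15 rests on a signal at background, and its other 4 probes were not well above background on either array.

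Among 10 inhibitors and pocket proteins, which hold the cycle back, 9 were measured and 1 was called, Cdkn1a, in the higher direction. Of all genes, 2.37% were called higher. Cdkn1a encodes p21, an inhibitor of cyclin-dependent kinases induced by p53. Its signal was 979 ± 98.0 in WT and 2108 ± 211 in Cx30 KO, 2.26-fold higher (log2 ratio 1.18, Z-score 4.26). A second probe was well above background in Cx30 KO only, with 7.97 ± 4.02 and 33.0 ± 4.78. The related inhibitors Cdkn1b (p27) and Cdkn1c (p57) had log2 ratios of −0.22 and −0.24 and were not called, and the median of the list was −0.11.

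The promoters of 5 MCM genes and of Ube2c are shown because the genes of this helicase had unlike ratios and Ube2c was the called gene of mitosis. Mcm4, which was not called, has no promoter in the RefSeq table and was not searched. Each line gives the 250 bases before the RefSeq start site (GRCm38.p6, strand in brackets), read 5′ to 3′ along the gene. Capitals mark matches on either strand to the E2F letters TTCCCGC or TTGGCGC, to the cell cycle homology region TTTGAA or to the CCAAT box CCAAT. Overlapping matches, such as CCAATTGG, were each counted, and for Mcm7 the first start in the table is shown.
Mcm2, chr6:88898781-88899030 (-): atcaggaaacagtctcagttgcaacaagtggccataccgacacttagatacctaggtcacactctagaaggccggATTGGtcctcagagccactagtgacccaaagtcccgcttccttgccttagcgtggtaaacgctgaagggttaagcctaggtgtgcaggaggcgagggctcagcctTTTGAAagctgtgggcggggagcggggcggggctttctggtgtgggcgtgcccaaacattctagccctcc
Mcm3, chr1:20820313-20820562 (-): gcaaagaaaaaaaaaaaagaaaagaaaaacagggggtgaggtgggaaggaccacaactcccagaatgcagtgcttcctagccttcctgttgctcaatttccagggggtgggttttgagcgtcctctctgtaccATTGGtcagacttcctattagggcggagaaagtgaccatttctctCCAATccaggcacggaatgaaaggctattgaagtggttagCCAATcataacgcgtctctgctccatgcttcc
Mcm6, chr1:128359706-128359955 (-): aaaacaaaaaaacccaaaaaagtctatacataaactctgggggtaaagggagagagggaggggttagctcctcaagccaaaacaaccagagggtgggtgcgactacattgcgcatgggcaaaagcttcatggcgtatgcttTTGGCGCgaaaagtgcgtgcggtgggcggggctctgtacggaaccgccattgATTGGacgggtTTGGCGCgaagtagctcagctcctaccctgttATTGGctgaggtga
Mcm5, chr8:75109259-75109508 (+): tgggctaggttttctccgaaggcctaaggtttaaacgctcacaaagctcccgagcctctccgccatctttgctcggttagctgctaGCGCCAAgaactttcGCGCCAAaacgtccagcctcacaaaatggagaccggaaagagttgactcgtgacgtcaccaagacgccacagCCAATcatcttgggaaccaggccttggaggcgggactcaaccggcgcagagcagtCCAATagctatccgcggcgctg
Mcm7, chr5:138171884-138172133 (-): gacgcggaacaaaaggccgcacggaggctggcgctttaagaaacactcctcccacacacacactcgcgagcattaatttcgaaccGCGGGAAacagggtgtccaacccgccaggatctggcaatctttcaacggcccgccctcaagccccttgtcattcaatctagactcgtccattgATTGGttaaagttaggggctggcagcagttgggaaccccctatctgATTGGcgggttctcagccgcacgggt
Ube2c, chr2:164769679-164769928 (+): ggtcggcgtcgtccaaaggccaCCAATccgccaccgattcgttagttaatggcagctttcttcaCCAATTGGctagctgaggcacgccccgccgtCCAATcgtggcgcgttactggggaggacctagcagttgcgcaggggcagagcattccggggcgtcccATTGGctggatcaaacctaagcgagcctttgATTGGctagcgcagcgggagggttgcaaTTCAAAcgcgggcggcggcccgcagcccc

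The E2F letters were found in the promoters of Mcm5, Mcm6 and Mcm7, of which Mcm6 was called lower and the others were not. The windows of Mcm2 and Mcm3, both called lower, hold no such match. Over the 29 members with a promoter in the RefSeq table, 20.7% held the E2F letters, against 6.45% of 27025 genes. These are not the same 29 as the measured members, since some without a ratio, such as Tk1 and Cdk1, are among them.

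The cell cycle homology letters were present for 31.0% of the 29 members against 18.3% of all genes. They were found in 1 of 11 promoters of G1/S and replication genes (that of Mcm2) and in 8 of 18 promoters of S/G2 and mitosis genes, Ube2c among them. The CCAAT box was present for 79.3% of members against 37.5% of all genes, and in all 5 MCM promoters. These letter matches describe the windows only.

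Cell type markers differed between the WT and the Cx30 KO pool as well. Fewer cells of a type, less RNA in each cell and unlike tissue content of the pools cannot be told apart in RNA from whole tissue. Of all genes, 45.4% had a log2 ratio under 0 and 3.39% were called lower. Of 10 oligodendrocyte precursor markers, all measured, 9 had a log2 ratio under 0 and 1, Olig1, was called lower (−1.04). Their median was −0.43 and their summed level, relative to the 75th percentile, was 28.9 in WT and 19.4 in Cx30 KO. Most of this sum came from the brightest markers, Gpr17, Olig1 and Sox10, with signals of 3702, 3212 and 2192 in WT. The log2 ratios of Gpr17 and Sox10 were −0.53 and −0.37, and neither was called. The defining markers Pdgfra and Cspg4 had log2 ratios of −0.10 and −0.35.

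Oligodendrocyte markers were lower in all 7 of 7 genes, with 5 called, a median of −0.73 and a summed level of 392 in WT and 244 in Cx30 KO. Microglial markers were under 0 in 7 of 8 genes, with 4 called, a median of −0.53 and a summed level of 230 and 222. Most of this sum came from Itgam, the only one of the 8 above 0 (log2 ratio 0.13). Its signal was 60045 in WT and 62438 in Cx30 KO. Progenitor and neuroblast markers of the subventricular zone were evenly split, 5 of 10 under 0, with a median of −0.04 and a summed level of 7.42 and 6.38, and Nes was called lower (−0.68). The defining neuroblast markers Dcx and Sox11 had log2 ratios of −0.19 and −0.10. The part of any of these cell types in the ratios of the cell cycle genes was not tested.

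Other markers also differed between the pools. Cortical neuron markers were higher in Cx30 KO, 5 of 6 of them called, with a summed level of 0.436 in WT and 3.64 in Cx30 KO, while 9 striatal neuron markers had a median of −0.16 and none (0) was called. Red blood cell markers were lower, with 2 of 2 measured genes called. Ependymal markers had a median of −0.27 with 1 of 7 called, and choroid plexus markers a median of −0.17 with 1 of 4 called. Astrocyte markers had a median of 0.01 with 2 of 7 called lower, and endothelial and mural markers −0.04 with 1 of 7 called lower. Perivascular macrophage and blood leukocyte markers, listed together, had a median of 0.10 with none (0) of 8 called. The part of tissue content and of strain background in the ratios of the members was not tested, since each pool is a single array.

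**Figure D4:**
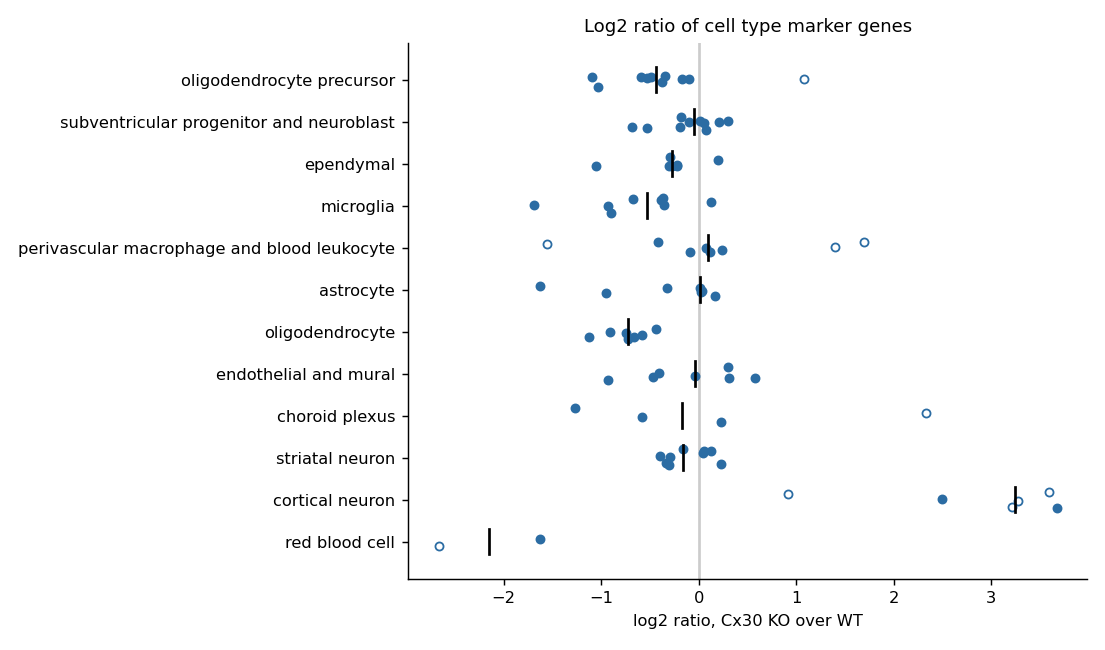
Log2 ratio of Cx30 KO over WT for each measured marker gene of 12 cell types, with filled points for genes well above background on both arrays, open points for those on 1 array only, and black lines for medians. The medians lie at −0.43 for oligodendrocyte precursor, −0.73 for oligodendrocyte, −0.53 for microglial and −0.04 for subventricular progenitor and neuroblast markers.

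The calls depended on how background and spread were treated. With normexp background correction, an offset of 50 and quantile normalisation, the ratios of the dim genes Mcm2 and Ube2c shrank to −0.51 and −0.54 and were no longer called, while Ccnd1, Mcm3 and Mcm6 were still called. With a Z-score over all probes in place of the nearest 1000, Mcm3 was no longer called, and Ccne2 and Cenpf were called higher. The call of Mcm3 also ended at ratio limits of 2 and 0.5, which the other 4 genes met. Over all settings tried the log2 ratio of Mcm6 lay between −2.22 and −1.67 and that of Ccnd1 between −1.23 and −1.10.

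**Figure D5:**
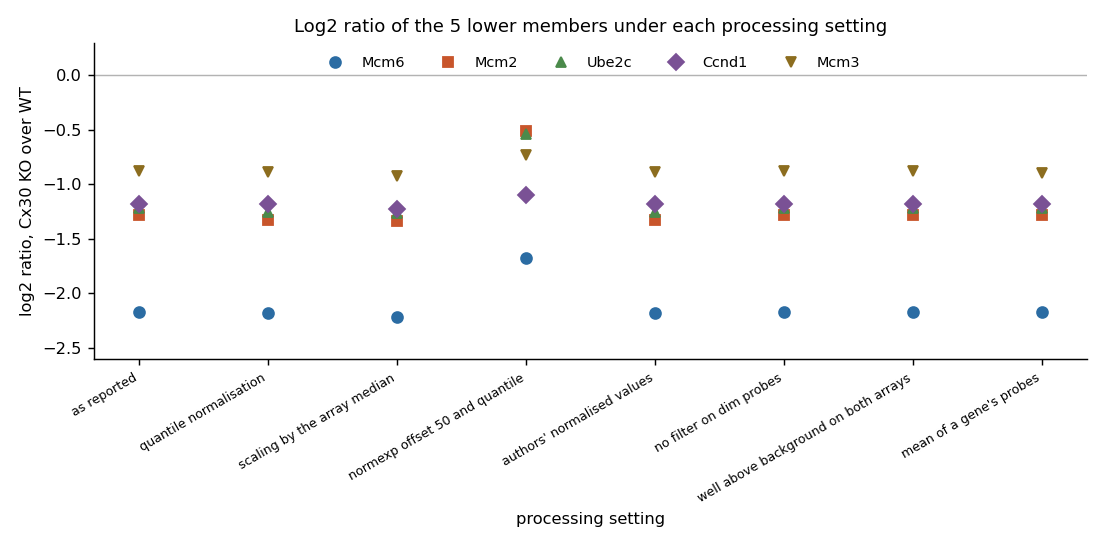
Log2 ratio of Cx30 KO over WT for the 5 members called lower (vertical axis) as reported and under each alternative processing of the signals (horizontal axis). All points lie under 0, and Mcm2 and Ube2c come closest to it, at −0.51 and −0.54, after normexp correction with an offset of 50.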

How the data were processed

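Total striatal RNA of 2 pooled mice for each genotype was labelled with Cy3 and hybridised by the authors to 1 array. The deposited values are linear intensities, made by the authors with Agilent Feature Extraction (version 10.7.1.1 in the file headers, 9.5.1.1 in the submitters' processing notes), which subtracted the background and removed trends within an array. Probe positions follow mm9. A table of values that the authors also deposited lies within 1% of the quantile-normalised intensities for 99.991% of its values. Its column medians are 41.21 on both arrays, and it served as an alternative.

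Here, control spots and outlier spots were left out, log2 signals were averaged over the spots of a probe, and each array was scaled by its 75th percentile. Each array has 56605 probes besides controls, with none (0) saturated and 32019 (WT) and 32961 (Cx30 KO) well above background. A gene was represented by its brightest probe among those with at least 50% of spots marked well above background on 1 array or more, and 1897 probes with an older symbol were renamed with a RefSeq table. Where only 1 array measured a gene, the ratio was bounded by the higher of the lowest signal that counted (19.8 in WT, 17.4 in Cx30 KO) and the gene's own signal. Z-scores used the 1000 probes nearest in mean log2 signal, since the methods name no set. The number of arrays limits the precision, and no test between genotypes was made. The scripts were tested on simulated data. Python 3.11.15, numpy 2.4.6, pandas 2.3.3, R 4.3.3 and limma 3.58.1 were used.

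The members and the lists of other genes were chosen with earlier results of these data known. All members are accounted for. From the other cell cycle lists, genes that met the limits and Cdkn1a, Cdkn1b and Cdkn1c are named. From the marker lists the first pair of each, genes that met the limits and Itgam, the brightest microglial marker, may be named. Gpr17 and Sox10 are named as bright oligodendrocyte precursor markers. Gjb6 serves as the check of the labels. Alternatives were quantile normalisation, median scaling, normexp with an offset of 50, the authors' table, no filter on dim probes, detection required on both arrays, averaging over the probes of a gene, other Z-scores (over all probes, over the 200 nearest or, chosen after seeing the data, over probes well above background), ratio limits of 2 and 0.5, and the ratio alone.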

Additional observations from a re-analysis of the deposited data

How the results depend on the processing

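No paired analysis was possible because each genotype has 1 array, and for the same reason no replicate could be left out. Of 95 recomputed summary values, 79 stayed within the limits set for them and 16 moved, and none (0) changed the direction of a call. With normexp and quantile normalisation, 3 members were called lower, the G2/M core median was 0.022, that of the other G2/M genes 0.10, and the difference of the cores −0.11. Without the filter on dim probes the G2/M core median was −0.21 and the difference 0.11. With detection required on both arrays, the median of the members was −0.085, of the G1/S core −0.19, of the inhibitors −0.041, and the difference −0.33. With the probes of a gene averaged, the G2/M core median was 0.22, that of the inhibitors −0.043 and the difference −0.315. A Z-score over all probes called 2 members higher, the ratio alone 3, and the broad classes differed by −0.33. Over all genes, 746 were called lower and 522 higher as reported, 428 and 340 at ratio limits of 2 and 0.5, 1367 and 1589 by the ratio alone, and 455 lower with the Z-score over all probes. With the both-array filter fewer genes were tested (20310), with 502 called lower and 328 higher. The shares fell as well, to 2.47% lower and 1.61% higher, from 3.39% and 2.37% as reported. The causes of these shifts were not tested. Of 253 values of single genes, 15 moved and no called value (0) changed sign, but Kif23, which was not called, went from −0.02 to 0.14 with its probes averaged. Signals near background limit the dim members: Top2a ranged from −0.82 to −0.35 and Ccne2 from 0.28 to 1.70.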

Other observations

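Genes around the MCM helicase and the APC/C, chosen after the values of the members were seen, add to the picture. Mcm8 and Mcm9, relatives of the helicase subunits that act in DNA repair, and Mcmbp, a binding partner of the MCM complex, were measured on both arrays. Their log2 ratios lay between 0.07 and 0.21 and none (0) of the 3 was called. Of all genes, 3.39% were called lower and 2.37% higher, so 3 genes are too few to read a rate from this count. The signal of Mcmbp was 1632 on the WT array and 1625 on the other.

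Ube2c passes ubiquitin to proteins bound by the APC/C. The 16 subunits and partners of the complex, among them Anapc2, Cdc27, the activator Fzr1 and the second conjugating enzyme Ube2s, were all measured. Their log2 ratios lay between −0.40 (Anapc10) and 0.43 (Anapc1) with a median of −0.02, and none (0) was called. For 16 genes this count lies near the shares of all genes, 3.39% lower and 2.37% higher. Ube2s, which extends the chains that Ube2c begins, had a log2 ratio of 0.05.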
